A study of Mus musculus with 12 samples.

Results

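Pancreatic islets of the autoimmune-prone NOD mouse and of the C57BL/10 (B10) mouse were compared in 6 of the 12 RNA-seq libraries of the series, 3 from NOD and 3 from B10 mice that carry no transgene. All 15352 genes with enough counts were tested and are described here. Per the labels, the NOD mice were NOD/LtJ;BR-H2k.129S7(B6)-Ragtm1Mom and the B10 mice C57BL/10SnSg;BR-H2k.129S7(B6)-Ragtm1Mom. Both groups were Rag-/- males with the MHC k haplotype, aged 11 weeks and labelled normoglycemia, with 3 mice per genotype per the series' design. The other 6 libraries come from the same strains carrying insHEL (NOD_insHEL and B10_insHEL, 3 each), a transgene for hen egg lysozyme driven by an insulin promoter. Their strain difference is set beside the results: the strain comparisons without and with insHEL share no library, although 1 fit over all 12 libraries gives both with 1 estimate of the spread. Collagenase digestion was done with α-amanitin and actinomycin D, which block transcription, and the islets were then enriched on dextran and picked by hand before stranded mRNA sequencing.

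NOD mice develop spontaneous autoimmune destruction of insulin-producing beta cells, while B10 mice do not. Rag genes are needed for the receptors of B and T cells, so that islets of these mice are examined without a lymphocyte infiltrate. An islet is mostly beta cells, with alpha, delta and PP cells, capillaries, pericytes, nerve endings and resident macrophages. Beta cells make and fold very large amounts of proinsulin, and they use the unfolded protein response and the integrated stress response to adjust translation, chaperones and amino acid supply. Acinar tissue, which makes digestive enzymes and surrounds each islet, is carried over in variable amounts when islets are picked.

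Library totals were 11874188, 13240553 and 6765595 counts in NOD and 16320983, 21138456 and 13920858 in B10, from 53, 137 and 108 picked islets and from 74, 50 and 20. Insulin transcripts (Ins1 and Ins2) held 23.3 to 24.3% of counts in NOD and 15.8 to 17.6% in B10. Rag1 had 54, 74 and 25 counts in NOD and 78, 141 and 98 in B10, and Rag2 had 0 in all of them, which allows 0.142 to 0.443 CPM per library (CPM are counts scaled to a common library total). The labels do not say which Rag gene is disrupted, so that neither count checks the genotype. The acinar markers, summed, were at 247, 408 and 337 CPM in NOD and 4556, 4086 and 5159 CPM in B10, and the lowest B10 library lay far above the highest NOD library. Endothelial markers summed to 1873, 2648 and 2306 CPM in NOD and 1518, 1342 and 1464 CPM in B10, and stellate cell, pericyte and matrix markers to 2869, 4152 and 3839 CPM in NOD and 2427, 2141 and 1945 CPM in B10, and in both NOD was the higher group without overlap. Pancreatic duct markers (1057 to 1146 against 1013 to 1102 CPM) and macrophage, dendritic cell and class II markers (534 to 841 against 605 to 699.9 CPM) overlapped between the strains. The few measured lymphocyte markers summed to 10.2 to 14.7 CPM in NOD and 6.71 to 6.79 in B10. Erythrocyte, adipocyte and mast cell markers summed to 74.2, 64.8 and 69.3 CPM in NOD and 40.2, 35.7 and 41.1 CPM in B10. This last sum was again higher in NOD, but it rested mostly on hemoglobin genes and Fabp4 (mean 36.4 CPM in NOD and 19.9 in B10). The adipocyte genes Adipoq, Plin1, Cfd and Lep and the mast cell genes Cpa3, Mcpt4 and Tpsb2 had 0 CPM in each library. Hba-a2 was lower in NOD (log2 difference -4.43), and Kit did not pass (-0.57). The sum therefore does not show more adipocytes or mast cells in NOD. In bulk tissue a lower number of cells of a type and less RNA per cell cannot be told apart.

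**Figure D1:**
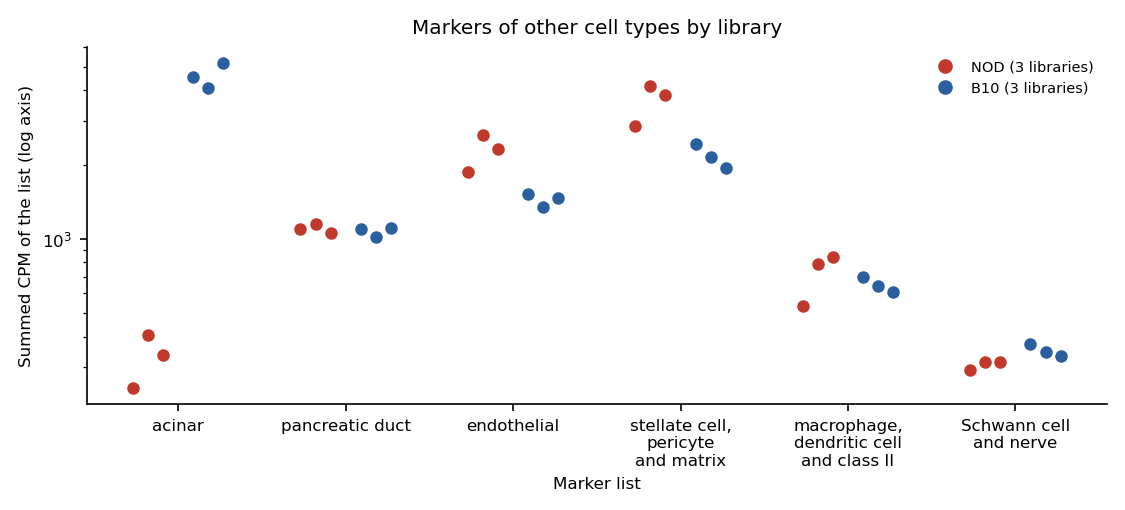
Summed expression (CPM, log axis) of 6 lists of markers of non-endocrine cells, 1 point per library, NOD in red and B10 in blue. The 3 B10 libraries hold 4086 to 5159 CPM of acinar markers against 247 to 408 in NOD, and the endothelial and stellate cell lists are higher in each NOD library than in each B10 library.

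The description labels of the B10 libraries (sample101, sample102 and sample104) stand apart from those of the NOD libraries (sample002, sample020 and sample029). If these numbers mark a preparation batch, batch and strain cannot be told apart in NOD against B10, and no within-batch value exists. The transgenic libraries are numbered 3, 4 and 15 for NOD_insHEL and 1, 9 and 13 for B10_insHEL, so that their strain comparison is not divided in this way. The differences between NOD and B10 also followed gene composition, length and expression level. Across 5 equal classes of genes by exonic GC content, the median log2 difference went from -0.15 in the lowest to 0.23 in the highest, and from the shortest to the longest class by exon length it went from 0.19 to -0.15. By mean expression it went from 0.19 in the lowest to -0.13 in the highest class, and from 0.15 to -0.05 after the GC and length trends were removed. In NOD_insHEL against B10_insHEL the 5 medians by GC content lay between -0.03 and 0.01, while by mean expression they went from 0.16 to -0.07. Values with the GC and length trends removed are given for gene groups whose call or size depended on them, and the source of these trends was not tested.

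**Figure D2:**
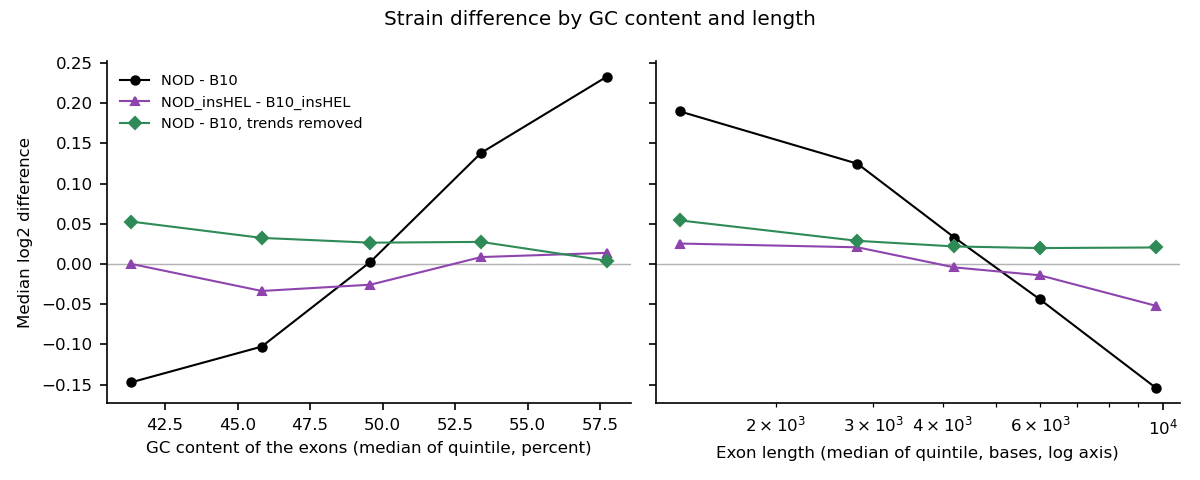
Median log2 difference between the strains for genes in 5 equal classes of exonic GC content (left, percent) and exon length (right, bases, log axis). The line for NOD against B10 climbs with GC content from -0.15 to 0.23 and descends with length from 0.19 to -0.15, while the lines for the transgenic libraries and for NOD against B10 with the trends removed lie between -0.0519 and 0.0542.

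Islets of the strains differed in a large part of the transcriptome. At an adjusted p under 0.05 (edgeR's quasi-likelihood F-test, Benjamini-Hochberg over all genes), 4353 of 15352 genes (28.4%) differed, 2065 (13.5%) higher and 2288 (14.9%) lower in NOD. Most differences were modest, with a median size of 0.66 on the log2 scale among called genes, and 631 genes (4.11%) called higher and 545 (3.55%) called lower differed by 2-fold or more. Without NOD replicate 3, the shallowest of the 6 libraries, 2868 genes were called. A total of 2229 calls (51.2%) held when each of the 6 libraries was left out in turn. In 7298 genes (47.5%) the 3 and 3 libraries did not overlap. With the acinar score of each library (its mean level of acinar genes) as a covariate, 1518 genes (9.89%) were called, and 1371 genes (8.93%) were called the same way as without it, 586 higher and 785 lower. That covariate leans on 1 library, since B10_insHEL replicate 2 is the only transgenic library with a score near those of B10, and without this library 90 genes were called under the covariate. In the transgenic libraries 1850 genes (12.1%) were called, and 1343 genes (8.75%) were called the same way in both comparisons, which is 30.9% of the calls here and 72.6% of the calls there. Only 6 genes were called in opposite directions. With GC and length trends removed, 3057 calls (19.9%) held.

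**Figure D3:**
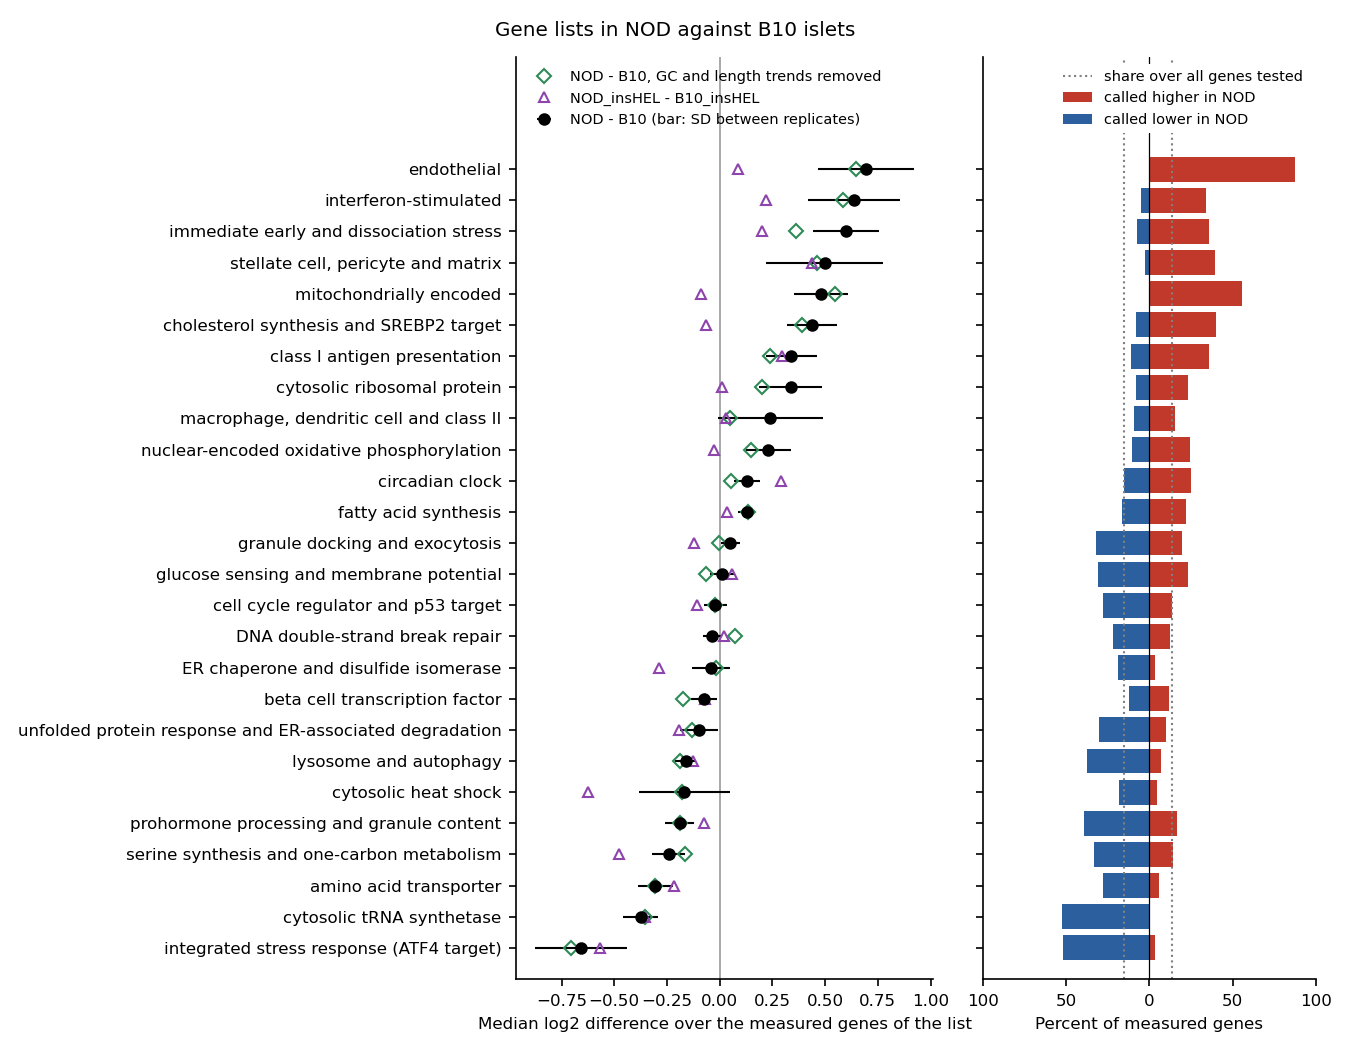
Left, the median log2 difference (NOD minus B10) over the measured genes of each list, with a bar for the SD of that median between replicates, the same median with GC and length trends removed, and the median in the transgenic libraries. Right, the percent of each list called higher or lower in NOD, with dotted lines at the share over all genes (13.5% and 14.9%); endothelial genes lie at one end and integrated stress response genes at the other.

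The genes that differed most, among those called also with the acinar covariate and expressed at a mean of at least 5 CPM in 1 strain and without overlap, were also called in the transgenic libraries and whenever a library was left out, for all 12 highest and 12 lowest (largest adjusted p = 0.0102, Npy). Pianp (ENSMUSG00000030329, chr6:124996694-125003096), which encodes a neural membrane protein, had 75.6, 74.6 and 62.4 CPM in NOD and 0.761, 0.721 and 0.477 CPM in B10 (log2 difference 6.72, SE 0.21, adjusted p = 9.33e-15). Arhgap36 (ENSMUSG00000036198, chrX:49463945-49500244), a GTPase-activating protein gene expressed in endocrine and neural tissue, had 107, 113 and 109 CPM in NOD and 2.87, 3.65 and 3.0 CPM in B10 (log2 difference 5.09, SE 0.20, adjusted p = 5.51e-12). Npy, the gene of neuropeptide Y, which dampens insulin release, had 133, 107 and 198 CPM in NOD and 13.6, 6.76 and 9.88 CPM in B10 (log2 difference 3.86, SE 0.57, adjusted p = 0.00151). In all 3 genes each NOD library lay several-fold above each B10 library. Slc39a8, which encodes a zinc and manganese importer, had 31.9, 29.2 and 25.1 CPM in NOD and 2.87, 1.62 and 1.23 CPM in B10 (log2 difference 3.91, SE 0.34, adjusted p = 2.36e-06). Itih1, an inter-alpha-trypsin inhibitor heavy chain gene, had 30.6, 43.2 and 36.6 CPM in NOD and 1.46, 0.946 and 1.16 CPM in B10 (log2 difference 4.96, SE 0.23, adjusted p = 4.03e-12). Masp2, a serine protease gene of the lectin pathway of complement, had 15.4, 19 and 18 CPM in NOD and 0.644, 0.27 and 0.477 CPM in B10 (log2 difference 5.24, SE 0.34, adjusted p = 8.29e-10). Here too the groups were far apart. The meiosis gene Tex15 was higher by 5.70 and the sulfate transporter gene Slc26a1 by 5.34 on the log2 scale. Ccdc178 had 259 counts summed over NOD and 2 over B10, a ratio of CPM of 213 (exact 95% counting interval 58.4 to 1768), and the organic anion transporter gene Slco1a1 had 183 and 3, a ratio of 100.3 (exact 95% counting interval 33.8 to 491). Zfp990 and Zfp985 (8.87 and 5.79) belong to a cluster of near-identical zinc finger genes on chromosome 4, and the assignment of their reads is uncertain.

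Among the 12 lowest genes, the ghrelin gene Ghrl (ENSMUSG00000064177, chr6:113716119-113719880), expressed by epsilon cells, had 0.165, 0.0727 and 0.144 CPM in NOD and 14.5, 4.28 and 5.66 CPM in B10 (log2 difference -5.93, SE 0.68, adjusted p = 9.76e-06). Aldh1a3 (ENSMUSG00000015134, chr7:66390890-66427517), a retinaldehyde dehydrogenase gene known as a marker of dedifferentiating beta cells, had 0.991, 2.69 and 1.15 CPM in NOD and 28, 31.5 and 29 CPM in B10 (log2 difference -4.10, SE 0.54, adjusted p = 0.000713). Col6a6, a collagen VI chain gene, had 4.54, 6.61 and 7.78 CPM in NOD and 81.6, 88.3 and 85.5 CPM in B10 (log2 difference -3.78, SE 0.18, adjusted p = 5.51e-12). NOD replicate 2 was the highest NOD library for Aldh1a3, and in these 3 genes each NOD library lay far under each B10 library. Cox6a2, the muscle form of a cytochrome oxidase subunit, had 1.9, 3.92 and 1.87 CPM in NOD and 48.8, 54.3 and 43 CPM in B10 (log2 difference -4.18, SE 0.57, adjusted p = 0.000777). The ubiquitin ligase gene Rnf150 had 2.15, 1.53 and 2.74 CPM in NOD and 30.4, 36 and 37.6 CPM in B10 (log2 difference -4.08, SE 0.36, adjusted p = 3.96e-06). The unconventional myosin gene Myo7a had 0.661, 0.654 and 0.144 CPM in NOD and 12.1, 14.1 and 10.0 CPM in B10 (log2 difference -4.45, SE 0.32, adjusted p = 3.18e-09). Again the groups did not overlap. Phgdh, a serine synthesis gene described with the amino acid genes, also belongs here. The matrix gene Cthrc1 (-4.37 in log2), Asb11 (-4.27) and the olfactomedin gene Olfm3 (-3.76) were lower too. Rpl34 (-4.88) and Rpl29 (-5.30) have many processed copies in the genome, so that their values are uncertain. Reads were mapped to GRCm38, which is a C57BL/6 assembly, and loss of reads from NOD alleles was not tested.

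**Figure D4:**
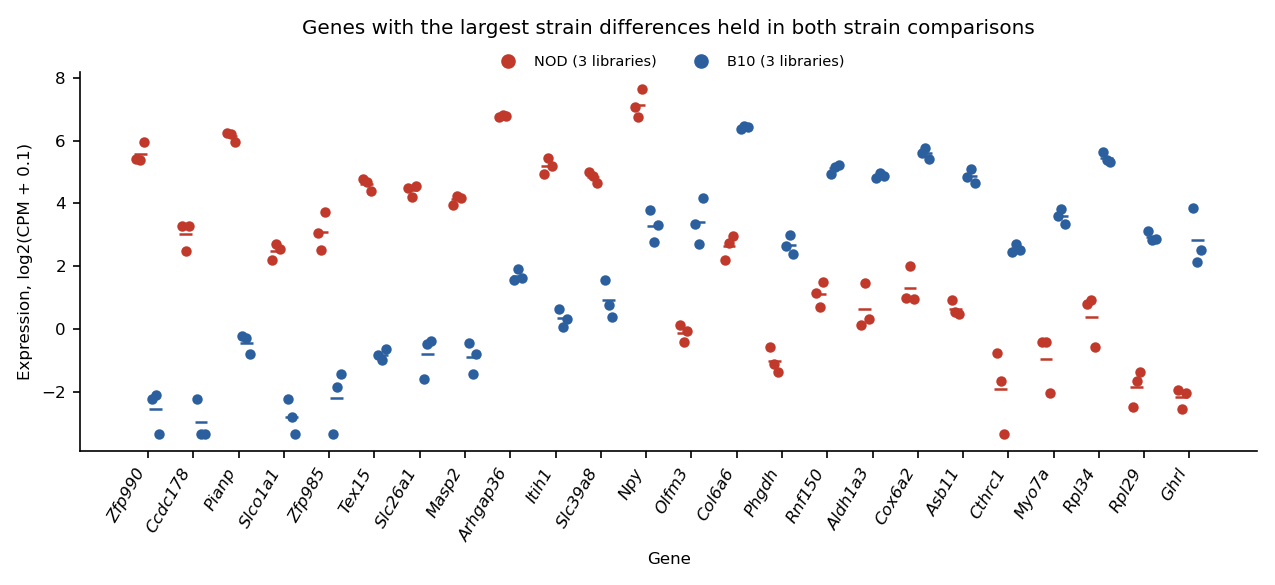
Expression per library, as log2(CPM + 0.1), of the 12 genes highest in NOD (left) and the 12 lowest (right), with NOD in red, B10 in blue and a short line at each group mean. In each gene the 3 libraries of one strain lie clear of the 3 of the other.

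In NOD islets ATF4 target genes, the output of the integrated stress response, were far more often lower than higher. In this response, phosphorylation of the initiation factor eIF2α slows translation and raises the transcription factor ATF4, which binds CARE elements and induces genes for amino acid synthesis, transport and tRNA charging. Of the ATF4 target list 1 of 29 measured genes was higher and 15 lower, while 13 did not pass, against 14.9% of all genes lower, and the median log2 difference was -0.66 (-0.57 in the transgenic libraries, and 0.03 over all genes). The regulators themselves overlapped between the strains. Atf4 had 349, 323 and 267 CPM in NOD and 366, 406 and 306 CPM in B10 (log2 difference -0.20, SE 0.16, adjusted p = 0.374), and Ddit3, which encodes the transcription factor CHOP, had 32.5, 31.5 and 33.6 CPM in NOD and 28.4, 43.5 and 24.2 CPM in B10 (log2 difference 0.01, SE 0.31, adjusted p = 0.979). Promoter sequences from RefSeq (GRCm38.p6, 250 bases before to 50 after the transcription start) matched 23 of the tested targets. The CARE letters TGATGNAA, searched on both strands, were present in 8 of these 23 promoters (34.8%). They were present in 2.78% of all tested genes with a promoter and in 3.97% of all 32851 promoters. The list is made of ATF4 targets, so that this share does not bear on the strain difference. Among the 8, Atf3, Trib3 and Chac1 were not called. Of the 12 matched targets called lower, 5 held the letters. Stretches around these 5 matches are shown, 5′ to 3′ along the gene, because they hold the letters of the element that ATF4 is known to bind, with the match in capitals (TTGCATCA and TTACATCA are matches on the opposite strand).
Asns (chr6:7693210-7693272, minus strand): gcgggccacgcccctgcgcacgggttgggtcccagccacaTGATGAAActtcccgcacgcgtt
Nupr1 (chr7:126625533-126625620, minus strand): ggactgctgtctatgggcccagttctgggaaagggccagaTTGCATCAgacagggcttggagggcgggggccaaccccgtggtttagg
Slc7a11 (chr3:50443614-50443719, minus strand): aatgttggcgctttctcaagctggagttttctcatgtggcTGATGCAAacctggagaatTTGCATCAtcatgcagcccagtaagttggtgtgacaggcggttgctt
Vldlr (chr19:27216780-27216867, plus strand): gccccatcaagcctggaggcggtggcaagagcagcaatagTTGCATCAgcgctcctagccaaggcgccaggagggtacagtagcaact
Pck2 (chr14:55540123-55540210, plus strand): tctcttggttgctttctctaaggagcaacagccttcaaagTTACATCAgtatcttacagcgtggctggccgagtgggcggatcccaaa
Each match is a description of letters and does not show binding in these islets.

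Asns, the asparagine synthetase gene, whose match starts 23 bases before the transcription start, had 77, 66.8 and 50.1 CPM in NOD and 186, 207 and 178 CPM in B10 (log2 difference -1.55, SE 0.18, adjusted p = 1.97e-05). Nupr1, a stress-induced chromatin regulator gene with a match at 110 bases, had 10.7, 9.3 and 8.5 CPM in NOD and 135, 122 and 122 CPM in B10 (log2 difference -3.72, SE 0.35, adjusted p = 5.03e-05). Slc7a11, which encodes the cystine importer and has 2 matches within 1 stretch, had 0.578, 0.0727 and 0 CPM in NOD and 1.64, 5.0 and 1.02 CPM in B10 (log2 difference -3.38, SE 0.94, adjusted p = 0.0167). Asns and Nupr1 were lower in each NOD library than in each B10 library by a wide margin, whereas the Slc7a11 difference rests on low counts, its call ended when B10 replicate 2, NOD replicate 2 or NOD replicate 3 was left out (adjusted p at its highest 0.0813), and it was -3.16 with adjusted p = 0.157 under the acinar covariate. Vldlr, a lipoprotein receptor gene, had 68.3, 54.1 and 58.9 CPM in NOD and 95.4, 116 and 111 CPM in B10 (log2 difference -0.83, SE 0.14, adjusted p = 0.000272). Pck2, mitochondrial PEP carboxykinase, had 74.7, 66.2 and 64.4 CPM in NOD and 88.9, 100.2 and 88.9 CPM in B10 (log2 difference -0.44, SE 0.11, adjusted p = 0.00507). These last 2 genes were chosen for their promoter match after their values were seen. Eif4ebp1, a translation repressor gene, had 5.45, 4.65 and 5.18 CPM in NOD and 14.7, 18.1 and 12.9 CPM in B10 (log2 difference -1.59, SE 0.27, adjusted p = 0.000299). Sesn2, a sestrin gene that restrains mTORC1, had 35.6, 33.8 and 30.8 CPM in NOD and 52.1, 62.3 and 52.2 CPM in B10 (log2 difference -0.73, SE 0.12, adjusted p = 0.000172). No library of one strain reached the other in these 4 genes. The 1 target called higher was Stc2, which encodes the secreted glycoprotein stanniocalcin 2, with 6.19, 4.0 and 3.6 CPM in NOD and 1.23, 0.586 and 0.954 CPM in B10 (log2 difference 2.34, SE 0.37, adjusted p = 9.34e-05), and it did not pass with the acinar covariate (adjusted p = 0.107).

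Among serine synthesis and one-carbon genes, a list that shares members with the ATF4 targets, more genes were lower than higher. Of the serine and one-carbon list 3 of 21 measured genes were higher and 7 lower, while 11 did not pass, against 13.5% higher and 14.9% lower over all genes. The median was -0.24, and -0.48 in the transgenic libraries. Phgdh (ENSMUSG00000053398, chr3:98313170-98339990), the first enzyme of serine synthesis, had 0.578, 0.363 and 0.288 CPM in NOD and 6.14, 7.89 and 5.11 CPM in B10 (log2 difference -3.88, SE 0.38, adjusted p = 2.79e-07). Psat1, the next enzyme, had 5.78, 5.23 and 6.48 CPM in NOD and 28, 23.3 and 24.9 CPM in B10 (log2 difference -2.14, SE 0.24, adjusted p = 4.19e-06). Psph, the last enzyme, had 11.7, 11 and 13.4 CPM in NOD and 9.65, 11 and 8.86 CPM in B10 (log2 difference 0.28, SE 0.20, adjusted p = 0.302). So the first 2 steps were lower in all NOD libraries and the last did not pass. Aldh1l2 (ENSMUSG00000020256, chr10:83487450-83534140), which turns mitochondrial 10-formyl-tetrahydrofolate into CO2 and tetrahydrofolate, had 25.4, 25.4 and 23.3 CPM in NOD and 139, 149 and 137 CPM in B10 (log2 difference -2.52, SE 0.32, adjusted p = 0.000383). Mtr, methionine synthase, had 7.43, 6.76 and 3.6 CPM in NOD and 14.7, 14.7 and 15.8 CPM in B10 (log2 difference -1.30, SE 0.24, adjusted p = 0.000384), and its call ended with the acinar covariate (adjusted p = 0.0516). Ahcy, which hydrolyses S-adenosylhomocysteine, differed by -2.59, but processed copies of Ahcy make its counts uncertain.

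Aminoacyl-tRNA synthetases, the enzymes that charge tRNAs with amino acids, were lower or did not pass. Of the cytosolic synthetase list 0 of 23 measured genes were higher and 12 lower, while 11 did not pass (median -0.37, against -0.35 in the transgenic libraries and -0.35 with GC and length trends removed). Mars, for methionine, had 50.9, 48.8 and 38.5 CPM in NOD and 82.7, 97.8 and 75.7 CPM in B10 (log2 difference -0.89, SE 0.14, adjusted p = 0.00015). Aars, for alanine, had 126, 109 and 87.4 CPM in NOD and 186, 213 and 179 CPM in B10 (log2 difference -0.84, SE 0.15, adjusted p = 0.000299). Eprs, for glutamate and proline, had 157, 156 and 151 CPM in NOD and 267, 267 and 237 CPM in B10 (log2 difference -0.73, SE 0.11, adjusted p = 5.57e-05). The lowest B10 library exceeded the highest NOD library in each of these. The calls of Iars, Nars, Tars and Dars (log2 differences -0.91, -0.86, -0.72 and -0.47) did not pass with the acinar covariate (adjusted p 0.0507 to 0.146), and 4 of the 12 calls held there. Of the amino acid transporter list 1 of 18 measured genes was higher and 5 lower, while 12 did not pass (median -0.30). Over all genes 13.5% were higher and 14.9% lower. Slc7a1, the cationic amino acid transporter, had 37.9, 34.5 and 37.3 CPM in NOD and 66.1, 100.5 and 64.4 CPM in B10 (log2 difference -1.08, SE 0.15, adjusted p = 2.11e-05). Slc3a2, the heavy chain that Slc7a11 and Slc7a8 need at the membrane, had 130.3, 135 and 99.8 CPM in NOD and 186, 207 and 173 CPM in B10 (log2 difference -0.63, SE 0.13, adjusted p = 0.00141). Slc7a8, a neutral amino acid exchanger gene, had 133, 134 and 123 CPM in NOD and 215, 231 and 219 CPM in B10 (log2 difference -0.77, SE 0.12, adjusted p = 5.61e-05). All 3 transporters were lower in each NOD library. Slc36a4 was lower (log2 difference -0.52, adjusted p = 0.00136). In the transgenic libraries Slc7a1 passed (-0.62 with adjusted p = 0.00877), while Slc3a2 (-0.22 with adjusted p = 0.324) and Slc7a8 (-0.22 with adjusted p = 0.258) did not.

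**Figure D5:**
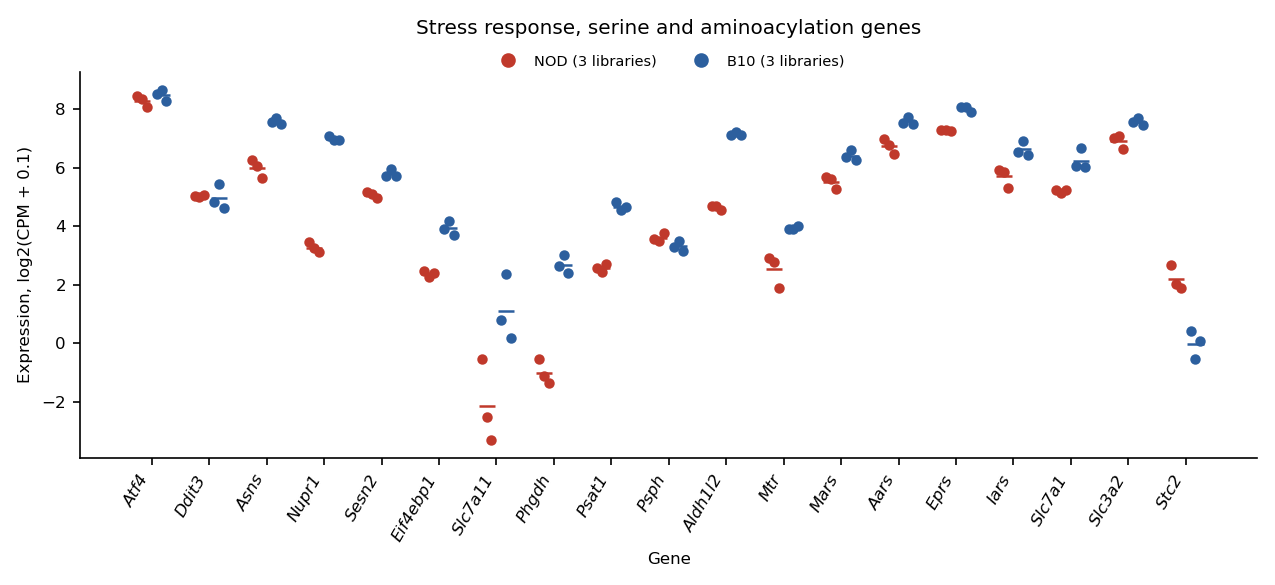
Expression per library, as log2(CPM + 0.1), of genes of the integrated stress response, serine and one-carbon metabolism, tRNA charging and amino acid transport, with NOD in red, B10 in blue and a line at each mean. Atf4, Ddit3 and Psph did not pass the test, Stc2 is higher in NOD, and the other genes are lower in each NOD library.

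Endoplasmic reticulum (ER) genes did not move as one. Of ER chaperones and disulfide isomerases 1 of 27 measured genes was higher and 5 lower, while 21 did not pass (median -0.04), a called share of 22.2% against 28.4% of all genes, and of the unfolded protein response and ER-associated degradation list 3 of 30 measured genes were higher and 9 lower, while 18 did not pass (median -0.10). The main chaperone gene Hspa5 (BiP) had 1596, 1503 and 1643 CPM in NOD and 1523, 1955 and 1612 CPM in B10 (log2 difference -0.10, SE 0.16, adjusted p = 0.659), with overlapping groups. Among the sensors of the unfolded protein response, Ern1 (IRE1α) had 169.9, 149 and 125 CPM in NOD and 238, 292 and 289 CPM in B10 (log2 difference -0.88, SE 0.18, adjusted p = 0.00206). Eif2ak3 (PERK), which phosphorylates eIF2α, had 58, 65.2 and 56.2 CPM in NOD and 90.5, 129 and 77 CPM in B10 (log2 difference -0.72, SE 0.16, adjusted p = 0.00205). Both sensors were lower in each NOD library, and neither passed with the acinar covariate (adjusted p = 0.176 and 0.0793), while Xbp1, whose mRNA IRE1α splices, did not pass (log2 difference 0.10, SE 0.10, adjusted p = 0.496). In degradation, Sel1l, the adaptor of the HRD1 ligase, had 139, 135 and 121 CPM in NOD and 231, 301 and 256 CPM in B10 (log2 difference -1.0, SE 0.15, adjusted p = 0.000103). Edem2, which trims mannose from misfolded glycoproteins, had 225, 261 and 244 CPM in NOD and 98.4, 130.3 and 107 CPM in B10 (log2 difference 1.12, SE 0.12, adjusted p = 1.4e-06). These 2 genes of 1 pathway therefore differed in opposite directions, each without overlap and each also called in the transgenic libraries (-1.0 with adjusted p = 0.000166 for Sel1l and 0.55 with adjusted p = 0.00444 for Edem2). Vcp, the segregase gene, differed by -2.24, with processed copies that make its counts uncertain. Among folding factors, Hsp90b1 (GRP94) was lower (log2 difference -0.41, adjusted p = 0.0143), as were Canx, calnexin (-0.49, 0.00766), and the oxidase gene Ero1l (-0.74, 0.00364), while Fkbp2, a prolyl isomerase gene, was higher by 0.79 (0.000319). None of these 4 passed with the acinar covariate. Hsp90b1 did not pass with GC and length trends removed (adjusted p = 0.0937), and calreticulin, Calr, did not pass at all (log2 difference 0.25, SE 0.13, adjusted p = 0.157).

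Several lysosomal hydrolase genes were lower in NOD islets. Of the lysosome and autophagy list 3 of 43 measured genes were higher and 16 lower, while 24 did not pass (median -0.16), and 18 were lower with GC and length trends removed. Over all genes 13.5% were higher and 14.9% lower, and 12.2% were lower with those trends removed. Glb1, the acid β-galactosidase gene (ENSMUSG00000045594, chr9:114401076-114474898), had 15.8, 15.1 and 16.6 CPM in NOD and 33.1, 38.3 and 38 CPM in B10 (log2 difference -1.21, SE 0.14, adjusted p = 3.33e-06). Man2b1, an acid mannosidase gene, had 36.3, 48.3 and 34.3 CPM in NOD and 71.3, 75.9 and 74.3 CPM in B10 (log2 difference -0.89, SE 0.13, adjusted p = 3e-05). Asah1, acid ceramidase, had 239, 199.6 and 199 CPM in NOD and 386, 360.3 and 416 CPM in B10 (log2 difference -0.86, SE 0.13, adjusted p = 7.35e-05). Each of these was lower in all NOD libraries, and so were Idua (-0.87), Manba (-0.75) and the membrane protein gene Lamp2 (-0.70). Of 7 measured cathepsin genes 5 did not pass. Ctsb had 262, 228 and 277 CPM in NOD and 299, 278 and 278 CPM in B10 (log2 difference -0.16, SE 0.11, adjusted p = 0.285), and Ctsd had 246, 243 and 266 CPM in NOD and 309.8, 286 and 289 CPM in B10 (log2 difference -0.23, SE 0.10, adjusted p = 0.105). The other two cathepsin genes, singled out after their values were seen, were Ctsl and Ctsz. Ctsz was higher in each NOD library (log2 difference 0.64, SE 0.12, adjusted p = 0.00038), and Ctsl was lower (log2 difference -0.34, SE 0.10, adjusted p = 0.0166). The Ctsl call ended when B10 replicate 1, NOD replicate 2 or NOD replicate 3 was left out (adjusted p at its highest 0.0928), with the acinar covariate (-0.43 with adjusted p = 0.0649) and with GC and length trends removed (adjusted p = 0.318). In the transgenic libraries Glb1 (-1.25 with adjusted p = 7.19e-06), Man2b1 (-0.78 with adjusted p = 0.000375) and Manba (-0.49 with adjusted p = 0.034) passed, and Idua (-0.37 with adjusted p = 0.0933), Asah1 (-0.27 with adjusted p = 0.203) and Lamp2 (-0.13 with adjusted p = 0.504) did not.

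Among hormones, both insulin genes were higher and islet amyloid polypeptide was lower. Ins1 had 74955, 75217 and 71159 CPM in NOD and 42977, 44643 and 43982 CPM in B10 (log2 difference 0.75, SE 0.14, adjusted p = 0.000627). Ins2 had 153650.0, 158884 and 164972 CPM in NOD and 125480.0, 105519 and 114940.0 CPM in B10 (log2 difference 0.47, SE 0.13, adjusted p = 0.0136). Iapp, co-secreted with insulin, had 20222, 16901 and 19399 CPM in NOD and 28909, 25578 and 28682 CPM in B10 (log2 difference -0.56, SE 0.12, adjusted p = 0.00135). The NOD and B10 ranges did not overlap in any of the 3. Iapp also passed in the transgenic libraries (-0.64 with adjusted p = 0.000667), where Ins1 (0.30 with adjusted p = 0.186) and Ins2 (0.22 with adjusted p = 0.322) did not. The Ins2 call ended when B10 replicate 2, B10 replicate 3 or NOD replicate 3 was left out (adjusted p at its highest 0.0901) and with GC and length trends removed (adjusted p = 0.132), and with the acinar covariate neither Ins1 (0.34 with adjusted p = 0.231) nor Ins2 (0.20 with adjusted p = 0.535) passed, while Iapp did (-0.59 with adjusted p = 0.0331). Gcg, the glucagon gene, had 22047, 6721 and 20159 CPM in NOD and 31288, 28153 and 5432 CPM in B10, a spread of several-fold within each strain, and Sst, somatostatin, had 4342, 1581 and 3321 CPM in NOD and 2046, 1935 and 1478 CPM in B10. Neither differed beyond that spread (adjusted p = 0.676 and 0.13). Gc, an alpha cell gene for the vitamin D-binding protein, had 75.3, 76.9 and 68.4 CPM in NOD and 142, 131 and 140.3 CPM in B10 (log2 difference -0.90, SE 0.13, adjusted p = 2.86e-05), with NOD lower throughout.

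Secretory granule genes changed in both directions. Of prohormone processing and granule content genes 3 of 18 measured genes were higher and 7 lower, while 8 did not pass (median -0.19). Over all genes 13.5% were higher and 14.9% lower. Scg2, secretogranin II, had 4377, 3844 and 4171 CPM in NOD and 11055, 10049 and 11053 CPM in B10 (log2 difference -1.38, SE 0.13, adjusted p = 2.79e-07). Scg5, which encodes the 7B2 chaperone of the convertase PC2, had 1671, 1422 and 1448 CPM in NOD and 822, 731 and 784 CPM in B10 (log2 difference 0.96, SE 0.11, adjusted p = 2.34e-06). Ptprn2, the granule autoantigen phogrin, had 757, 624 and 601 CPM in NOD and 1060.2, 1207 and 1214 CPM in B10 (log2 difference -0.81, SE 0.12, adjusted p = 3.62e-05). Scg2 and Ptprn2 were lower and Scg5 higher in each NOD library, and all 3 were also called in the transgenic libraries. Vgf, a neuroendocrine peptide precursor gene, was lower (log2 difference -1.11, adjusted p = 0.00214) and so was the convertase gene Pcsk1 (-0.49, 0.00305). Pcsk1 missed the threshold with GC and length trends removed (adjusted p = 0.0757), and neither Pcsk2 (0.265) nor carboxypeptidase E, Cpe (0.159), passed. Of docking and exocytosis genes 6 of 31 measured genes were higher and 10 lower, while 15 did not pass (median 0.05), against the same 13.5% and 14.9%. The calcium sensor gene Syt9 had 6.52, 5.81 and 9.5 CPM in NOD and 24.1, 22.6 and 21 CPM in B10 (log2 difference -1.67, SE 0.17, adjusted p = 5.7e-07). Cadps2, a priming factor gene, had 6.61, 8.58 and 10.2 CPM in NOD and 18.3, 21.2 and 19.2 CPM in B10 (log2 difference -1.23, SE 0.19, adjusted p = 8.83e-05). Mlph, the Rab27 effector melanophilin, had 28.7, 27.3 and 27.6 CPM in NOD and 14, 12.8 and 17.9 CPM in B10 (log2 difference 0.91, SE 0.17, adjusted p = 0.000509). Syt9 and Cadps2 were lower and Mlph higher without overlap, and Mlph did not pass with the acinar covariate (1.0 with adjusted p = 0.0935). Sytl5 was lower (log2 difference -1.25) and the syntaxin gene Stx4a higher by 0.64, and neither passed with the acinar covariate (adjusted p = 0.193 and 0.0665). Snap25, a t-SNARE gene, was higher by 0.34, a call that ended when B10 replicate 1, B10 replicate 2, B10 replicate 3, NOD replicate 1 or NOD replicate 2 was left out (adjusted p at its highest 0.122) and with the acinar covariate (0.16 with adjusted p = 0.583).

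In glucose sensing and membrane excitability 6 of 26 measured genes were higher and 8 lower, while 12 did not pass (median 0.01), against 13.5% higher and 14.9% lower over all genes. Slc2a2, the glucose transporter GLUT2, had 751, 801 and 788 CPM in NOD and 721, 679 and 841 CPM in B10 (log2 difference 0.06, SE 0.15, adjusted p = 0.796). The groups overlapped for this transporter. Trpm5, a calcium-activated cation channel gene, had 228, 205 and 283 CPM in NOD and 100.2, 86 and 95.7 CPM in B10 (log2 difference 1.34, SE 0.27, adjusted p = 0.00443). Cacna1a, the P/Q-type calcium channel pore, had 127, 150.3 and 137 CPM in NOD and 78.1, 78.9 and 88.2 CPM in B10 (log2 difference 0.76, SE 0.10, adjusted p = 2.18e-05). Trpm5 and Cacna1a were higher in all NOD libraries, and Trpm5 did not pass with the acinar covariate (0.64 with adjusted p = 0.111). Kcnma1, the BK channel gene, was lower (log2 difference -0.78, adjusted p = 0.000358, but 0.0718 with the acinar covariate). Beta cell transcription factors mostly did not pass, with a called share of 24% against 28.4% of all genes (3 of 25 higher, 3 lower). Pdx1 had 244, 227 and 224 CPM in NOD and 242, 235 and 291 CPM in B10 (log2 difference -0.14, SE 0.12, adjusted p = 0.378), and Nkx6-1 had 485, 406 and 389 CPM in NOD and 417, 428 and 442 CPM in B10 (log2 difference -0.01, SE 0.12, adjusted p = 0.974), both overlapping. Mafa had 98.8, 139 and 81.9 CPM in NOD and 88.8, 56.8 and 72 CPM in B10 (log2 difference 0.56, SE 0.35, adjusted p = 0.274), with a wide spread in each strain. Of those that passed, Etv1 was lower (log2 difference -0.92, adjusted p = 0.000914, but 0.0545 with the acinar covariate) and the zinc finger gene Myt1 higher by 0.55 (0.000756).

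Endothelial genes were higher in NOD islets almost throughout. In the endothelial list 21 of 24 measured genes were higher and 0 lower, while 3 did not pass, against 13.5% of all genes higher, with a median of 0.69 (0.64 with GC and length trends removed). Cdh5, the cadherin of endothelial junctions, had 79.3, 115 and 94.9 CPM in NOD and 51.1, 46 and 49.4 CPM in B10 (log2 difference 0.98, SE 0.13, adjusted p = 1.08e-05). Plvap, which forms the diaphragms of fenestrated capillaries, had 259, 392.4 and 282 CPM in NOD and 156, 139 and 144 CPM in B10 (log2 difference 1.09, SE 0.14, adjusted p = 7.69e-06). Mmrn2, an endothelial matrix glycoprotein gene, had 68.8, 91.6 and 81.9 CPM in NOD and 41, 33.3 and 35.7 CPM in B10 (log2 difference 1.14, SE 0.13, adjusted p = 2e-06). NOD replicate 2 was the highest and NOD replicate 1 the lowest of the NOD libraries in each of them, and the groups did not overlap. The transcription factor gene Erg was higher by 1.03, Pecam1 by 0.62, Egfl7 by 0.93 and Epas1, the hypoxia-inducible factor 2α gene abundant in endothelium, by 0.90. Egfl7 did not pass with the acinar covariate (0.94 with adjusted p = 0.0714). With the number of islets picked as a covariate, Pecam1 and Flt1 did not pass (log2 differences 0.40 and 0.37). In the transgenic libraries the endothelial median was 0.09, with 1 gene higher and 2 lower. The difference between the strain comparisons passed for Flt1, the VEGF receptor 1 gene (NOD minus B10 0.46, -0.36 with adjusted p = 0.0358 with insHEL, interaction adjusted p = 0.049).

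Among matrix and pericyte genes, most did not pass, and nearly all of those that did were higher in NOD. Of the stellate cell, pericyte and matrix list 15 of 38 measured genes were higher and 1 lower, while 22 did not pass, against 13.5% higher and 14.9% lower over all genes. The median was 0.50, and 0.44 in the transgenic libraries. Among basement membrane genes, Col4a2 had 218, 345 and 291 CPM in NOD and 137, 132 and 115 CPM in B10 (log2 difference 1.15, SE 0.15, adjusted p = 1.38e-05). Col15a1, a basement membrane collagen gene, had 100.9, 155 and 114 CPM in NOD and 42.2, 43.1 and 41.6 CPM in B10 (log2 difference 1.55, SE 0.17, adjusted p = 5.6e-06). Lama4, a laminin chain of vessel walls, had 43, 56.5 and 47.7 CPM in NOD and 24.7, 21.3 and 25 CPM in B10 (log2 difference 1.05, SE 0.14, adjusted p = 1.37e-05). Sparc, a collagen-binding glycoprotein gene, had 380.4, 568 and 501 CPM in NOD and 236, 199 and 189 CPM in B10 (log2 difference 1.21, SE 0.14, adjusted p = 3.07e-06), and all 4 were clearly higher in each NOD library than in any B10 library. Cxcl12, a chemokine of stromal cells, had 32.9, 50.6 and 48.8 CPM in NOD and 17.4, 10.8 and 8.18 CPM in B10 (log2 difference 1.86, SE 0.29, adjusted p = 0.00066). Col6a3 was higher by 1.55, in contrast to Col6a6 and Cthrc1, which were among the lowest genes. The fibrillar collagens Col1a1 and Col3a1 did not pass. Col1a1 had 16.8, 40.3 and 35.9 CPM in NOD and 23.4, 20.7 and 11.2 CPM in B10 (log2 difference 0.74, SE 0.45, adjusted p = 0.263), and Col3a1 had 75.7, 139.8 and 161 CPM in NOD and 115, 108 and 62.2 CPM in B10 (log2 difference 0.40, SE 0.40, adjusted p = 0.505), with NOD replicate 1 inside the B10 range for both. Endothelial and matrix markers are higher in the same libraries, and the part of cell number in these differences was not tested.

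Most interferon-stimulated genes did not pass, and of those that did, more were higher than lower in NOD. Of the list 21 of 62 measured genes were higher and 3 lower, while 38 did not pass, against 13.5% higher and 14.9% lower over all genes. The median was 0.64 (0.22 in the transgenic libraries). Summed, the list held 1203, 1612 and 1574 CPM in NOD and 1223, 1235 and 1235 CPM in B10, so that NOD replicate 1 lay just under the B10 libraries. Isg15, a ubiquitin-like modifier gene, had 4.21, 6.98 and 3.6 CPM in NOD and 2.22, 1.58 and 2.32 CPM in B10 (log2 difference 1.31, SE 0.33, adjusted p = 0.00582). Ifit3, which binds viral RNA, had 6.69, 15.3 and 7.06 CPM in NOD and 4.21, 3.2 and 4.43 CPM in B10 (log2 difference 1.32, SE 0.33, adjusted p = 0.00633). Mx2, a dynamin-like GTPase gene, had 3.88, 10.2 and 5.62 CPM in NOD and 1.81, 2.84 and 1.98 CPM in B10 (log2 difference 1.57, SE 0.37, adjusted p = 0.00441). NOD replicate 2 was the highest library in all 3, and their calls ended without NOD replicate 2 (adjusted p = 0.0685, 0.0786 and 0.0599). Irf7, the regulator of type I interferon genes, had 8.92, 20.7 and 14.4 CPM in NOD and 9.3, 5.68 and 7.63 CPM in B10 (log2 difference 0.97, SE 0.27, adjusted p = 0.0134), with overlap, and its call ended when B10 replicate 2 or NOD replicate 2 was left out (adjusted p at its highest 0.123). With the acinar covariate Isg15, Mx2 and Irf7 did not pass (adjusted p = 0.237, 0.0638 and 0.0871). The core of the interferon-stimulated response element (GAAA, any 2 bases, GAAA, on either strand) was found in 27 of 46 tested members' promoters (58.7%). It was found in 3.74% of all tested genes with a promoter and in 3.44% of all promoters. Of 17 members with a promoter called higher 9 held it, no larger a share than in the whole list. There were 2 members at 0 counts in 1 strain. Ifi202b (ENSMUSG00000026535, chr1:173962568-173982744), a p200-family gene, had 1.98, 3.63 and 3.46 CPM in NOD and 0, 0 and 0 CPM in B10, a difference of at least 53.7-fold with 0 counts taken as 3 over the group. Trim12a (ENSMUSG00000066258, chr7:104299894-104315466), a tripartite motif gene with close paralogs, had 0, 0 and 0 CPM in NOD and 5.38, 3.74 and 4.98 CPM in B10, which puts NOD at least 50.3-fold lower by the same rule. Markers of macrophages and dendritic cells, summed, were at 534, 789 and 841 CPM in NOD and 699.9, 642 and 605 CPM in B10, with NOD replicate 1 the lowest, and their part in the interferon result was not tested.

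Of class I antigen presentation genes 10 of 28 measured genes were higher and 3 lower, while 15 did not pass, against 13.5% higher and 14.9% lower over all genes. The median was 0.34, and 0.29 in the transgenic libraries. H2-K1 had 227, 276 and 291 CPM in NOD and 181, 174 and 166 CPM in B10 (log2 difference 0.61, SE 0.14, adjusted p = 0.00251). B2m, the class I light chain, had 298, 379.9 and 431 CPM in NOD and 271, 239.7 and 289.5 CPM in B10 (log2 difference 0.47, SE 0.13, adjusted p = 0.0111). H2-Q4 had 49.1, 64 and 60.1 CPM in NOD and 29.4, 30.8 and 30.6 CPM in B10 (log2 difference 0.93, SE 0.13, adjusted p = 2e-05). H2-K1 and H2-Q4 were higher in each NOD library, and so was B2m, by a smaller margin, whose call ended when B10 replicate 2 or NOD replicate 3 was left out (adjusted p at its highest 0.092). With the acinar covariate H2-K1 (0.25 with adjusted p = 0.394), B2m (0.53 with adjusted p = 0.0775) and H2-D1 (0.36 with adjusted p = 0.203) did not pass. H2-D1 and H2-T23 were higher by 0.54 and 1.02, and reads shared among class I paralogs make single members uncertain. Erap1, which trims peptides in the ER, had 60.4, 53.6 and 57.9 CPM in NOD and 98.3, 99.4 and 113 CPM in B10 (log2 difference -0.86, SE 0.13, adjusted p = 5.55e-05), with NOD lower. Of macrophage, dendritic cell and class II genes 5 of 33 measured genes were higher and 3 lower, while 25 did not pass, a called share of 24.2%, under the 28.4% of all genes. Ptprc (CD45) had 8.26, 14.2 and 12.1 CPM in NOD and 9.65, 9.55 and 7.77 CPM in B10 (log2 difference 0.35, SE 0.24, adjusted p = 0.291), and Adgre1 (F4/80) had 7.27, 8.5 and 6.77 CPM in NOD and 6.2, 8.47 and 7.16 CPM in B10 (log2 difference 0.05, SE 0.23, adjusted p = 0.887), both overlapping. Mrc1, the mannose receptor gene, was lower, with 1.16, 1.67 and 1.44 CPM in NOD and 4.74, 5.18 and 3.0 CPM in B10 (log2 difference -1.60, SE 0.38, adjusted p = 0.00376). Laptm5, a leukocyte lysosomal gene, was higher, with 13, 17.6 and 15.8 CPM in NOD and 7.9, 9.82 and 8.59 CPM in B10 (log2 difference 0.81, SE 0.18, adjusted p = 0.00241), and neither passed with the acinar covariate. Genes in or near mapped diabetes loci are described here only where they were called. Il2, Ctla4 and Ptpn22 had too few counts to be tested. Glis3, Ifih1, Ptpn2, Tyk2, Il2ra, Bach2 and Clec16a, among others, did not pass. Of the called genes, Cd44, the hyaluronan receptor gene, had 29.6, 23.6 and 31.4 CPM in NOD and 65.4, 77 and 79.9 CPM in B10 (log2 difference -1.40, SE 0.16, adjusted p = 2.91e-06). Tnfrsf9 (4-1BB) had 10.6, 13.1 and 17.4 CPM in NOD and 4.8, 5.32 and 7.63 CPM in B10 (log2 difference 1.2, SE 0.24, adjusted p = 0.00101). Fcgr1, the high-affinity IgG receptor gene, was higher by 1.41 and Fcgr2b, the inhibitory receptor gene, lower (log2 difference -1.15, adjusted p = 0.00686 and 0.00757). Cd44 and Tnfrsf9 were also called in the transgenic libraries (-1.13 with adjusted p = 5.41e-05 and 1.52 with adjusted p = 0.000391), and the 2 Fc receptor genes were not (0.86 with adjusted p = 0.172 and -0.63 with adjusted p = 0.24). Tnfrsf9 and Fcgr2b did not pass with the acinar covariate (adjusted p = 0.222 and 0.185).

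Sterol synthesis genes were more often higher than lower. Of the cholesterol synthesis and SREBP2 target list 10 of 25 measured genes were higher and 2 lower, while 13 did not pass, against 13.5% higher and 14.9% lower over all genes. The median was 0.44, but -0.06 in the transgenic libraries and 0.22 with the acinar covariate, where 1 of the 10 calls held. Cyp51, lanosterol demethylase, had 135, 132 and 101.1 CPM in NOD and 65.4, 65.9 and 75.6 CPM in B10 (log2 difference 0.84, SE 0.12, adjusted p = 3.48e-05). Sc5d, a later desaturase, had 22, 20.0 and 15.6 CPM in NOD and 37.3, 34.5 and 37.5 CPM in B10 (log2 difference -0.91, SE 0.14, adjusted p = 6.94e-05). Cyp51 was higher and Sc5d lower in each NOD library, with the same calls in the transgenic libraries (0.80 with adjusted p = 0.000108 and -1.0 with adjusted p = 7.61e-05). The stearoyl-CoA desaturases were higher. Scd1 had 48.8, 45.4 and 38.5 CPM in NOD and 16, 13 and 12.5 CPM in B10 (log2 difference 1.68, SE 0.23, adjusted p = 8.12e-05). Scd2 had 643, 604 and 482 CPM in NOD and 223, 211 and 249 CPM in B10 (log2 difference 1.34, SE 0.14, adjusted p = 4.71e-07). Fasn, fatty acid synthase, had 108, 131 and 106 CPM in NOD and 103.6, 113 and 101.7 CPM in B10 (log2 difference 0.12, SE 0.11, adjusted p = 0.435). Both desaturases were higher in each NOD library by a wide margin, with Fasn overlapping, and the elongase gene Elovl5 was lower (log2 difference -0.59, adjusted p = 0.000875).

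Most nuclear-encoded respiratory chain and ribosomal protein genes did not pass, and of those that did, more were higher than lower. Over all genes 13.5% were higher and 14.9% lower. Of mitochondrially encoded genes 5 of 9 measured genes were higher and 0 lower, while 4 did not pass, with a median of 0.48 but -0.09 in the transgenic libraries. mt-Co1 had 8769, 9814 and 10216 CPM in NOD and 7061, 5766 and 6896 CPM in B10 (log2 difference 0.55, SE 0.13, adjusted p = 0.0029), and mt-Cytb was higher by 0.48, a call that ended when B10 replicate 2 was left out (adjusted p = 0.0772). None of the 5 calls held with the acinar covariate. Of nuclear-encoded respiratory chain genes 19 of 77 measured genes were higher and 8 lower, while 50 did not pass (median 0.23, 0.15 with GC and length trends removed, and -0.03 in the transgenic libraries), and 1 of the 19 higher calls held with the acinar covariate. Atp5e, the ATP synthase ε subunit, had 134, 115 and 163 CPM in NOD and 69.2, 65.2 and 71.9 CPM in B10 (log2 difference 1.0, SE 0.13, adjusted p = 1.08e-05). Ndufa2, a complex I subunit gene, had 47.3, 42.5 and 57.2 CPM in NOD and 33.2, 29 and 32 CPM in B10 (log2 difference 0.64, SE 0.14, adjusted p = 0.00171). Both were higher in each NOD library, but only Atp5e passed with the acinar covariate (0.77 with adjusted p = 0.00507, against 0.34 with adjusted p = 0.252 for Ndufa2). Of cytosolic ribosomal protein genes 18 of 78 measured genes were higher and 6 lower, while 54 did not pass (median 0.34). With GC and length trends removed that median was 0.20 and 9 were higher, against 12.7% of all genes. In the transgenic libraries the median was 0.01 with 0 higher. The genes of this list called lower, such as Rpl3 (-2.97) and Rpl30 (-1.45), have processed copies, so that their values are uncertain. Rplp0 did not pass (log2 difference 0.12, SE 0.14, adjusted p = 0.579). These short genes lie where the length trend is highest (a median of 1805.5 exonic bases in the ribosomal list).

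Immediate early and dissociation stress genes, which cells switch on within minutes of a stimulus, were more often higher than lower in NOD. Of the list 10 of 28 measured genes were higher and 2 lower, while 16 did not pass (median 0.60, 0.36 with 5 higher once GC and length trends were removed, and 0.20 in the transgenic libraries). Over all genes 13.5% were higher and 14.9% lower, and 12.7% were higher with those trends removed. Jund, an AP-1 subunit gene, had 75, 67.2 and 68 CPM in NOD and 36.7, 38.2 and 34.6 CPM in B10 (log2 difference 0.94, SE 0.12, adjusted p = 6.47e-06). Jun had 61.9, 68.4 and 37.3 CPM in NOD and 32.5, 33.3 and 34.5 CPM in B10 (log2 difference 0.75, SE 0.16, adjusted p = 0.00218). Egr1 had 25.7, 44.3 and 22.6 CPM in NOD and 11.5, 8.65 and 16.7 CPM in B10 (log2 difference 1.36, SE 0.41, adjusted p = 0.035). NOD replicate 3 lay closest to B10 for Jun and Egr1, and the Egr1 call ended when B10 replicate 1, B10 replicate 2 or NOD replicate 2 was left out (adjusted p at its highest 0.125) and with GC and length trends removed (adjusted p = 0.0688) or the acinar covariate added (adjusted p = 0.113). Fos overlapped between the strains (log2 difference 1.13, SE 0.43, adjusted p = 0.0808). Ccn1, a matricellular gene, was higher by 1.35 and the nuclear receptor gene Nr4a2 lower (log2 difference -1.03, adjusted p = 0.000741 and 0.00397). Of cytosolic heat shock genes 1 of 22 measured genes was higher and 4 lower, while 17 did not pass, a called share of 22.7%, under that of all genes (28.4%). Hspb8, a small heat shock protein gene, had 57.1, 41.7 and 49.7 CPM in NOD and 23.1, 22.1 and 16.8 CPM in B10 (log2 difference 1.26, SE 0.24, adjusted p = 0.00231). Hspa1a varied several-fold within each strain, with 20.1, 5.81 and 2.74 CPM in NOD and 4.27, 9.06 and 3.68 CPM in B10 (log2 difference 0.77, SE 0.99, adjusted p = 0.605). Hspa8 differed by -3.21 but has many processed copies.

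Most clock genes did not pass. In the circadian clock, BMAL1 (Arntl), CLOCK and NPAS2 drive Per, Nr1d1 and Dbp, whose products feed back on them. Of the list 5 of 20 measured genes were higher and 3 lower, while 12 did not pass, against 13.5% higher and 14.9% lower over all genes. Dbp had 96.3, 49.3 and 96.9 CPM in NOD and 21.5, 14.6 and 26.4 CPM in B10 (log2 difference 1.96, SE 0.45, adjusted p = 0.0128). Nr1d1 had 92.7, 60.2 and 79.3 CPM in NOD and 37.4, 24.3 and 28.9 CPM in B10 (log2 difference 1.36, SE 0.34, adjusted p = 0.0168). Npas2 had 1.4, 2.69 and 1.01 CPM in NOD and 4.91, 9.64 and 8.52 CPM in B10 (log2 difference -2.10, SE 0.62, adjusted p = 0.0269). Dbp and Nr1d1 were higher and Npas2 lower in each NOD library, but these calls depended on single libraries. That of Dbp ended when B10 replicate 2 was left out (adjusted p = 0.0555), that of Nr1d1 when B10 replicate 2, B10 replicate 3, NOD replicate 1 or NOD replicate 3 was left out (adjusted p at its highest 0.0741) and that of Npas2 when B10 replicate 2, B10 replicate 3, NOD replicate 1 or NOD replicate 3 was left out (adjusted p at its highest 0.0962). With the acinar covariate Dbp, Nr1d1, Tef and Per2 did not pass (adjusted p = 0.117, 0.063, 0.0637 and 0.107). The calls of Npas2, Per3 and Nfil3 held there (adjusted p = 0.00173, 0.0154 and 0.00641). Arntl, Cry1, Nr1d2 and Bhlhe40, not called without that covariate, passed with it (adjusted p = 0.0118, 0.00194, 0.016 and 0.0156). The covariate leans on B10_insHEL replicate 2. Clock was lower (log2 difference -0.59, adjusted p = 0.000922, but 0.1 with the acinar covariate) and Arntl did not pass (log2 difference -1.05, SE 0.41, adjusted p = 0.0816). Per3 passed narrowly (log2 difference 1.25, SE 0.41, adjusted p = 0.0494), and its call ended when B10 replicate 1, B10 replicate 2, B10 replicate 3, NOD replicate 1, NOD replicate 2 or NOD replicate 3 was left out (adjusted p at its highest 0.164).

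Among cell cycle regulators and p53 targets 5 of 36 measured genes were higher and 10 lower, while 21 did not pass, against 13.5% higher and 14.9% lower over all genes. Cdkn1a (p21), which arrests the cycle, had 15.9, 18.8 and 14.7 CPM in NOD and 29.5, 47.6 and 29.6 CPM in B10 (log2 difference -1.11, SE 0.20, adjusted p = 0.000527). Ccnd1, cyclin D1, had 97.6, 101.9 and 113 CPM in NOD and 213, 189 and 176 CPM in B10 (log2 difference -0.89, SE 0.12, adjusted p = 2.35e-05). Gadd45a, a stress-induced growth arrest gene, had 17.3, 16.4 and 15 CPM in NOD and 8.66, 7.25 and 8.45 CPM in B10 (log2 difference 1.01, SE 0.16, adjusted p = 8.12e-05). Cdkn1a and Ccnd1 were lower and Gadd45a higher in each NOD library, and all 3 were also called in the transgenic libraries. Bbc3 (PUMA), a proapoptotic gene, was higher by 1.26 and did not pass with the acinar covariate (0.68 with adjusted p = 0.235). Of DNA double-strand break repair genes 4 of 32 measured genes were higher and 7 lower, while 21 did not pass, a called share of 34.4% against 28.4% of all genes. Xrcc6, the Ku70 subunit that holds broken ends, had 24.2, 20.3 and 19.9 CPM in NOD and 44.8, 48.3 and 43 CPM in B10 (log2 difference -1.08, SE 0.13, adjusted p = 4.28e-06), with NOD lower in each library. Atm, the damage-signalling kinase gene, had 56.2, 53.9 and 44.4 CPM in NOD and 79.1, 89.4 and 124 CPM in B10 (log2 difference -0.91, SE 0.16, adjusted p = 0.000447), and its call ended with the acinar covariate (-0.65 with adjusted p = 0.0713).

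Most acinar genes were lower in NOD. In the acinar list 2 of 31 measured genes were higher and 19 lower, while 10 did not pass, with a median of -4.28 (-3.54 in the transgenic libraries). Over all genes 13.5% were higher and 14.9% lower. Trypsinogen Prss2 had 6.77, 17.9 and 13.8 CPM in NOD and 309, 282 and 347 CPM in B10 (log2 difference -4.61, SE 1.48, adjusted p = 0.0497). Carboxypeptidase Cpa1 had 9.08, 16.7 and 13.4 CPM in NOD and 282, 259 and 347 CPM in B10 (log2 difference -4.50, SE 1.38, adjusted p = 0.0417). Both were many-fold higher in each B10 library than in any NOD library, yet both calls ended whenever any of the 6 libraries was left out (adjusted p up to 0.138 and 0.123). The spread behind these tests comes from all 12 libraries, and the acinar score was 0.731, 5.33 and 0.0972 in the 3 B10_insHEL libraries. In the NOD_insHEL libraries it was 1.40, 0.485 and 1.24. Only B10_insHEL replicate 2 scored above NOD_insHEL, so that the transgenic median of -3.54 does not show a difference shared by the replicates. Of 6 measured regenerating-islet (Reg) genes 5 were lower. Reg2 had 0.661, 0.872 and 0.432 CPM in NOD and 120.1, 107 and 172 CPM in B10 (log2 difference -7.55, SE 1.74, adjusted p = 0.0133), and its call ended when NOD replicate 2 or NOD replicate 3 was left out (adjusted p at its highest 0.0534). Reg3b, whose reads paralogs may share, was lower in each NOD library as well, with 0, 0.218 and 0.432 CPM in NOD and 52.5, 48.3 and 55.3 CPM in B10 (log2 difference -8.06, SE 1.63, adjusted p = 0.00747).

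Per the labels both strains carry the MHC k haplotype and the same Rag allele. Between H2-K1 and Mog (chr17:33996017-37023398), 28 of 111 tested genes were higher and 1 lower in NOD, 26.1% against 28.4% of all genes. Over all genes 13.5% were higher and 14.9% lower, so that the calls in this interval were one-sided. Its median log2 difference was 0.32 (0.14 with GC and length trends removed), against 0.03 (0.03) over all genes. With GC and length trends removed 15 were higher and 5 lower (18%, against 24.9% of all genes). The genes called the same way in both strain comparisons were 3.60% of this interval and 8.75% of all genes. Within 5 Mb of Rag1 (chr2:96638282-106649501), 1 of 42 genes was higher and 9 lower (23.8%), Cd44 among them, and 9.52% were called the same way in both comparisons. Rag1 is taken from the annotation here, since the labels do not name the gene.

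The strain differences without and with insHEL were compared directly. Of the 4353 genes called in NOD against B10, 3905 (89.7%) had the same sign in the transgenic libraries. The test of the difference between both strain contrasts passed for 9 genes (0.0586% of those tested), with 1873 at an unadjusted p under 0.05, so that for most genes called in 1 comparison alone a difference between the comparisons was not shown. Genes called the same way in NOD against B10, with the acinar covariate, in the transgenic libraries and with GC and length trends removed numbered 281 higher and 475 lower. Among the genes described here, this set includes Pianp, Arhgap36, Npy, Aldh1a3, Nupr1, Phgdh, Psat1, Asns, Glb1, Scg2, Scg5, Cacna1a, Cd44, Cyp51, Scd1, Scd2, Ccnd1, Gadd45a and Xrcc6.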

How the data were processed

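Islet mRNA of 12 mice was sequenced on Illumina machines after a stranded mRNA preparation, per the labels' protocols. The authors deposited 1 table of whole-number counts per gene for 38561 Ensembl identifiers. The submitters' processing notes name cutadapt, TopHat2 2.0.8b, HTSeq, DESeq and the build GRCm38, while the strand setting of the counting is not given in the sources used here. Symbols and positions came from GENCODE vM21 (GRCm38), which named 36723 identifiers (95.2%, holding 99.8% of counts).

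Counts were scaled by TMM and tested with edgeR 4.0.16 (R 4.3.3) by the quasi-likelihood F-test over 15352 genes that passed filterByExpr, in 1 fit of 4 group means, with Benjamini-Hochberg adjustment at 0.05 and a common biological coefficient of variation of 14.2%. All 12 libraries entered every fit unless stated, and p-values measure the spread between mice prepared as they were. The acinar score is each library's mean log2 level of acinar genes, and the acinar covariate fit has it as a term beside the groups. GC and length trends were removed from log2 CPM by lowess (span 0.3). That correction, and the acinar covariate fit without B10_insHEL replicate 2, were added after seeing the data. On simulated counts for 15049 genes, the test recovered 87% of 2-fold and 99% of 4-fold changes. The simulation gave every gene the common variation, with no acinar, GC or length effect, so that it does not show recovery for more variable genes. No library duplicated another. Same-numbered replicates did not deviate together (r -0.08, -0.02 and -0.04).

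Named genes are the 12 highest and 12 lowest (adjusted p under 0.05 with and without the acinar covariate, mean of at least 5 CPM in the higher group, no overlap, not acinar or Reg, not predicted), the first 3 and up to 6 called genes of each list, up to 4 called genes per shared interval, and Rag1, Rag2, Ins1, Ins2, Iapp and Ptprc, with Vldlr, Pck2, Ctsl and Ctsz added after their values were seen. Some of them are not reported here. The lists, and NOD against B10 itself, were chosen with earlier results of these data known. A zero count was bounded at 3 counts over the group for folds. Intervals and bounds cover counting error only.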

Additional observations from a re-analysis of the deposited data

Results flagged for a closer look

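For 3 genes described here the strain difference without insHEL differed from that with insHEL by the interaction test (edgeR's quasi-likelihood F-test). Mlph, melanophilin, averaged 27.9 ± 0.74 CPM in NOD and 14.9 ± 2.65 in B10, against 19.9 ± 5.06 in NOD_insHEL and 1.45 ± 0.23 in B10_insHEL (SD, n = 3 each), an interaction of -2.81 on the log2 scale with adjusted p = 5.54e-05. Dpp4, a dipeptidyl peptidase gene that alpha and delta cells can express, averaged 92.6 ± 11.2 CPM in NOD and 65.6 ± 10.3 in B10, against 126 ± 17.9 and 25.5 ± 2.38 with insHEL (SD, n = 3 each), an interaction of -1.81 with adjusted p = 5.54e-05. The Dpp4 call without insHEL ended when B10 replicate 2 or NOD replicate 1 was left out (adjusted p at its highest 0.0825). Flt1, the VEGF receptor 1 gene, went the other way, with a strain difference of 0.46 without insHEL and -0.36 with adjusted p = 0.0358 with it, an interaction of 0.82 with adjusted p = 0.049.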

How the results depend on the processing

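Of 191 genes set out for the text, 157 were called in NOD against B10, and 138 of these calls held whenever 1 of the 6 libraries was left out. No such call was lost in a fit of the 6 libraries alone, with DESeq2 or with a stricter filter, and 1 was lost with RLE size factors, 2 with scaling without acinar and insulin genes, 2 in thinned libraries and 5 without the filter (Cpa1, Egr1, Npas2, Per3 and Prss2). The number of calls was 4353, and 1518 with the acinar covariate, 2688 with the islet number covariate, 90 with the acinar covariate without B10_insHEL replicate 2, and 2868 to 4021 when a replicate was left out. The transgenic comparison had 1850 calls, 1197 in a 6-library fit, 1038 with the acinar covariate without B10_insHEL replicate 2, and 1344 to 1978 when a replicate was left out. The acinar covariate ended 47 of the 157 calls, the islet number covariate 15 (B2m, Ctsl, Egr1, Fcgr1, Flt1, H2-D1, Ifit3, Irf7, Mx2, Npas2, Nr1d1, Pecam1, Per3, Prss2 and Cpa1) and the GC and length correction 6.

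With the replicate number as a block, 4263 genes were called in NOD against B10 and 1857 in the transgenic libraries, and Egr1, Per3, Prss2 and Cpa1 lost their calls. Same-numbered replicates share only a number.

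Directions reversed mostly where the acinar covariate was fitted without B10_insHEL replicate 2, a fit with 132 of the 157 calls lost. There the log2 difference was 0.0608 for Manba, 0.88 for Cadps2, -0.49 for Dpp4, 0.97 for Nr4a2, -0.44 for Hspb8, 0.37 for Atm and 1.5 for Prss2, and the median was -0.0542 for clock genes and 0.0907 for acinar genes. The median of beta cell transcription factors turned to 0.0271 with the islet number covariate and ran from -0.164 (without B10 replicate 2) to 0.0224 (without NOD replicate 2). That of exocytosis genes turned to -0.00478 with GC and length trends removed, -0.00955 with the acinar covariate and ran from -0.00957 (without NOD replicate 1) to 0.0571 (without NOD replicate 3), and that of nuclear respiratory chain genes to -0.0452 with the acinar covariate. The causes of these changes were not tested.

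The shallowest library, NOD replicate 3, sets the lowest level that can be seen, since 0 counts there allow 0.443 CPM. Batch, if the description numbers mark one, cannot be told apart from strain, and acinar levels did not overlap between the groups, so that an adjusted value rests on the transgenic libraries.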

Other observations

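Several groups outside the main account held single genes with wide strain differences. In membrane excitability, Kcnj5, a G protein-gated potassium channel gene, had 1.57, 0.654 and 1.73 CPM in NOD and 0.176, 0.135 and 0.341 CPM in B10 (log2 difference 2.55, SE 0.63, adjusted p = 0.00482). Of delta and PP cell markers 1 of 11 measured genes was higher and 1 lower, while 9 did not pass (13.5% of all genes were higher and 14.9% lower), and the leptin receptor gene Lepr, the 1 called higher, had 14.7, 19.7 and 17.9 CPM in NOD and 7.96, 6.85 and 6.75 CPM in B10 (log2 difference 1.28, SE 0.25, adjusted p = 0.0011). Both genes were higher in each NOD library, and Kcnj5 did not pass with the acinar covariate (3.25 with adjusted p = 0.0683). Of alpha cell markers 1 of 14 measured genes was higher and 1 lower, while 12 did not pass, a called share of 14.3% against 28.4% of all genes.

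Neural and glycolytic genes gave single calls as well. Of Schwann cell and neural markers 2 of 20 measured genes were higher and 3 lower, while 15 did not pass, a called share of 25%, near that of all genes. The neurofilament gene Nefm had 10.2, 5.6 and 9.79 CPM in NOD and 22.6, 22.1 and 19.8 CPM in B10 (log2 difference -1.36, SE 0.23, adjusted p = 0.000277). Of glycolysis and hypoxia genes 7 of 30 measured genes were higher and 6 lower, while 17 did not pass, a called share of 43.3% against 28.4% of all genes, and Pfkp, the platelet form of phosphofructokinase, had 12.6, 16.6 and 15.4 CPM in NOD and 33.8, 28.7 and 29 CPM in B10 (log2 difference -1.04, SE 0.16, adjusted p = 8.14e-05). In neither gene did the groups overlap. Proliferation genes almost all did not pass, with 2 of 30 lower and 0 higher, against 14.9% lower and 13.5% higher over all genes.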
